A study of Homo sapiens with 12 samples.

Results

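To determine how the nuclear subunit genes of the 5 oxidative phosphorylation complexes were expressed with 2 drugs, the genes were chosen by name from a table of 34687 gene rows. Names starting with NDUF were placed in complex I, SDH in complex II, UQCR in complex III, COX in complex IV and ATP5 in complex V, and the rule reads names and no measured value, although it was set with earlier results of these data known. The rule found 87 rows, which were 38 in complex I, 4 in complex II, 8 in complex III, 19 in complex IV and 18 in complex V. Of these, 74 were subunits, 7 were tissue-restricted or otherwise related forms, 1 (UQCRHL) was a near-identical copy of UQCRH, 2 (ATP5EP2 and COX6BP1) were pseudogenes, and 3 carried an older name of a gene that encodes no subunit (ATP5S, now DMAC2L, ATP5SL, now DMAC2, and COX4NB, now EMC8). NDUFA4 and its relative NDUFA4L2 were kept under complex I by name, although NDUFA4 is now placed in complex IV. Signals of UQCRH and UQCRHL, and of ATP5EP2 and ATP5E, may share RNA, since the transcripts are close to identical. None of the 13 subunits encoded in mitochondrial DNA was found in the table by name, so the data cover the nuclear subunits.

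Oxidative phosphorylation is carried out in the inner mitochondrial membrane by 5 protein complexes. Complexes I and II take electrons from NADH and succinate, complex III passes them on to cytochrome c, complex IV gives them to oxygen, and complex V, the ATP synthase, uses the proton gradient built by the others to make ATP. Most subunits are encoded in the nucleus, made in the cytosol and imported, while a small number are encoded in mitochondrial DNA. Complex II is the exception, since all of its subunits are nuclear and it also works as succinate dehydrogenase in the citric acid cycle.

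RNA came from HCT116, a human colorectal cancer line, and PANC1, a line of human pancreatic ductal carcinoma. Cells were given DMSO at 0.05%, the solvent control, or 10 uM of ICG-001 or C646, and were collected after 12 or 96 h. ICG-001 blocks the binding of β-catenin to the co-activator CBP, and C646 inhibits the histone acetyltransferase activity of CBP and of its relative p300. The cells collected at 96 h were started at a lower density than those collected at 12 h, and they were passaged and given fresh medium and drug in between, so time and handling cannot be told apart. Each line is a single line, and 1 column of signal intensities was used for each of the 12 groups, made by the authors by averaging 2 arrays, or 3 for PANC1 ICG-001 12 h. Without the values of single arrays no spread between replicates was known, so no test was run, and every difference is a size between 2 columns with no replicate check and no error.

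A row was compared when its signal was above the detection limit in at least 1 of the 2 columns, and was counted as lower or higher when the signals differed at least 1.2-fold, with 1.5-fold given beside it. This limit, set by the spread of background values, ran from 141.9 to 145.7 over the HCT116 columns and from 134.8 to 136.9 over those of PANC1, with 43.0% to 48.3% of all rows above it. Since background remained in the signal, ratios of dim rows understate their differences. Among markers of the labelled tissues, EPCAM, CDH1, KRT8, KRT18 and CDX2 were above the limit in all 12 columns, and KRT7, KRT19 and SOX9 in all columns of PANC1. VIL1 was not above the limit in any column, LGALS4 was above it in none of HCT116 and KRT20 in 1 column of HCT116. PTPRC, CD3E, PECAM1 and CDH5, which mark blood and endothelial cells, and the fibroblast genes COL1A2, DCN and LUM were not above it in any column, while COL1A1 was above it in all columns and CD14 in all columns of PANC1.

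Of the 87 rows, 74 were above the limit in all 12 columns, 7 in some and 6 in none. Rows in this last class were COX4I2, COX6A2, COX7A1, COX7B2 and COX8C, the lung, muscle and testis forms of complex IV subunits, and the pseudogene COX6BP1. The widespread forms COX4I1, COX6A1, COX6B1, COX7A2, COX7B and COX8A were above the limit in every column. COX6B2, a testis form, was above it in 5 columns, all at 96 h, with signals of 131, 121 and 125 at 12 h and 146, 156 and 161 at 96 h with DMSO, ICG-001 and C646 in HCT116. NDUFA4L2, known to be induced at low oxygen, was above it only with C646 at 96 h in HCT116 and with ICG-001 at 96 h in PANC1, at signals of 143 and 141. NDUFA5, NDUFB1, NDUFB4, NDUFC2 and NDUFS6, all accessory subunits of complex I, were the other rows above the limit in some columns. For these the signal stayed between 123 and 189, so their ratios carry little information.

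The DNA before the start site of some of these genes is shown first, because nuclear respiratory genes are known for shared promoter elements bound by NRF1, by ETS factors such as GABP, and by YY1. RefSeq start sites on GRCh38.p14 were found for 61 of the 74 subunit rows. Each window of 250 bases before to 50 after the start was searched on both strands for GCGCANGCG (NRF1), CCGGAAG (ETS), AAGATGGC (YY1) and GGGCGG (SP1), and a match is a description of the letters and not of binding. NRF1 letters were in 19 of 61 windows (31.1%) against 11% of 15843 windows of protein-coding genes, ETS letters in 19 (31.1%) against 14.2%, YY1 letters in 11 (18.03%) against 3.91%, and SP1 letters in 38 (62.3%) against 58.5%. At least 1 of the first 3 was in 37 windows (60.7%), against 25.5% of all. For the members compared in all 8 comparisons with DMSO, the median of the mean log2 ratio was -0.13 for 17 with NRF1 letters and -0.10 for 41 without, -0.10 for 19 with ETS letters and -0.14 for 39 without, and -0.07 for 11 with YY1 letters and -0.13 for 47 without.

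The 150 bases before the start are printed for SDHA, which was lower with ICG-001 than with C646 in all 4 pairs of columns, for ATP5C1 and UQCRFS1, which were among the rows lower with ICG-001 in both lines and carry NRF1 letters, and for UQCRC2 and COX7B, which were lower with both drugs in both lines and carry none of the 4 motifs in the window searched. Capitals mark matches to the NRF1 letters on either strand. The genes printed are a selection and cannot show a link between these letters and a drug. ATP5F1 and NDUFC1, also lower with ICG-001 in both lines, had no NRF1 letters in the window searched. NDUFA3 and ATP5O, lower with C646 in both lines, had them. ATP5C1 was below DMSO with C646 as well, in all 4 comparisons.
SDHA (chr5:218170-218319, + strand): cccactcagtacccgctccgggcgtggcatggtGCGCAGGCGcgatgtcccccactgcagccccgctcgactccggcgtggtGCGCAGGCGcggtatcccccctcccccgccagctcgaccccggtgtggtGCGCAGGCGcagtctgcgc
ATP5C1, now ATP5F1C (chr10:7788027-7788176, + strand): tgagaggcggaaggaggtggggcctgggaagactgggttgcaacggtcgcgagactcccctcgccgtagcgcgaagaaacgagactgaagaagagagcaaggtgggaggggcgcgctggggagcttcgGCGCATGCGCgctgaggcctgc
UQCRFS1 (chr19:29213152-29213301, - strand): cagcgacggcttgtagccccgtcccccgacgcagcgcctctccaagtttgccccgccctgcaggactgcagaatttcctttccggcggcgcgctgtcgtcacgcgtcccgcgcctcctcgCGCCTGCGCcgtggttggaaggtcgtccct
UQCRC2 (chr16:21953211-21953360, + strand): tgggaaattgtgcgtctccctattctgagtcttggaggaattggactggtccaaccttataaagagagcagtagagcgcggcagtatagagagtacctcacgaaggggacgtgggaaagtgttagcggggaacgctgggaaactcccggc
COX7B (chrX:77899318-77899467, + strand): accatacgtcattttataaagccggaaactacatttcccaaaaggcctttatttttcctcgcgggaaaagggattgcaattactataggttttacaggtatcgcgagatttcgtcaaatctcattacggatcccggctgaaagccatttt
SDHA had 3 matches, the nearest ending 11 bases before the start. In ATP5C1 the 10 capitals hold overlapping matches on the 2 strands, and UQCRFS1 had 1 match on the strand opposite to the gene.

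In HCT116 with ICG-001 at 12 h, 38 of 76 rows compared were at least 1.2-fold lower than with DMSO and 3 were higher, while 16.8% of all rows compared were lower and 16.3% higher. At 96 h, 29 of 78 were lower and 5 higher, against 17.7% and 17.1% of all rows. With C646 the numbers were 28 lower and 3 higher of 77 at 12 h, against 11.2% and 10.6% of all rows, and 21 lower and 0 higher of 79 at 96 h, against 9.87% and 9.81%. The median log2 ratio of the members was -0.26, -0.14, -0.19 and -0.12 in the same order, while that of all rows lay between -0.01 and 0.01. In such cultures, fewer cells expressing a gene and less RNA of it per cell cannot be told apart. At 1.5-fold, 12 members were lower and 1 higher with ICG-001 at 12 h (4.25% and 4.93% of all rows), and 10 lower and 2 higher at 96 h (5.25% and 5.27%). For C646, 3 were lower and 0 higher at 12 h (1.54% and 2.61% of all rows), with 0 in either direction at 96 h (1.22% and 1.89%). UQCRB was the only member past 2-fold in any of the 8 comparisons, with ICG-001 at 96 h, where 1.07% of all rows were 2-fold lower.

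In PANC1 with ICG-001, 9 of 77 rows were lower and 2 higher at 12 h, against 7.49% and 9.53% of all rows, and 20 of 80 were lower and 6 higher at 96 h, against 14.7% and 13.8%. With C646, 13 of 78 were lower and 6 higher at 12 h, against 13.1% of all rows in each direction, and 15 of 79 were lower and 0 higher at 96 h, against 11.2% and 10%. Their median log2 ratio was -0.07 and -0.10 with ICG-001, then -0.10 and -0.13 with C646, while all rows had medians from -0.02 to 0.00. At 1.5-fold, ICG-001 gave 0 members in either direction at 12 h (0.335% of all rows lower and 2.17% higher) and 3 lower and 1 higher at 96 h (3.48% and 3.76%). C646 gave 1 lower and 0 higher at each time, against 2.65% and 3.92% of all rows at 12 h and 1.18% and 2.8% at 96 h.

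Subunit genes are bright on these arrays, and bright rows passed 1.2-fold more often than dim ones. Counts by complex and by gene list further on are set beside shares of all rows, which are smaller than those of bright rows. Among rows with a mean signal of at least 1000 in the line, a range chosen after the data were seen, 60 members were left in each line. In HCT116, 33 and 24 of the 60 were lower with ICG-001 at 12 and 96 h (55% and 40%, against 27.1% and 29.2% of all rows of that range), and 25 and 18 were lower with C646 (41.7% and 30%, against 19.7% and 17.2%). In PANC1 the share of members that were lower was close to that of all rows as bright: 11.7% and 25% with ICG-001 against 14.5% and 25.5%, and 18.3% and 21.7% with C646 against 21.7% and 19.4%. Higher members remained few in both lines, with 0 to 5 of 60 in the 8 comparisons, while 13.4% to 28.1% of all rows of that range were higher. In PANC1 the members therefore differed from other bright rows in how few were higher, and not in how many were lower.

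**Figure D1:**
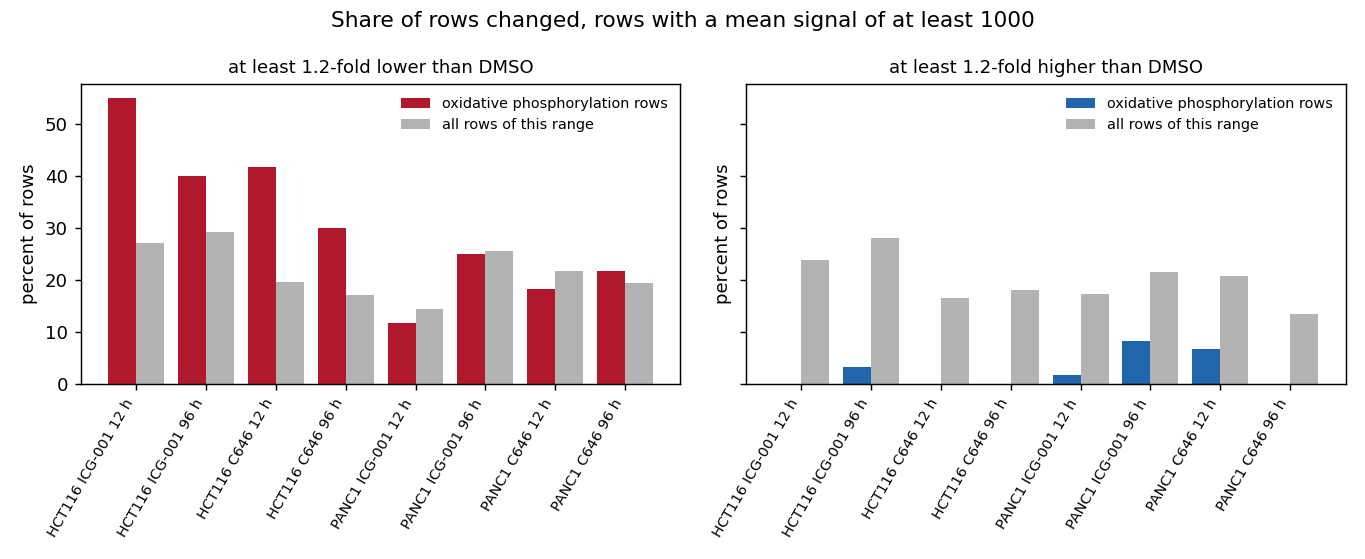
Percent of rows at least 1.2-fold lower (left) or higher (right) than DMSO in each of 8 comparisons, over rows with a mean signal of at least 1000; coloured bars are the 60 oxidative phosphorylation rows and grey bars all rows of that range. The coloured bars exceed the grey ones for lower rows in the 4 HCT116 comparisons but not in 3 of the 4 PANC1 comparisons, and are below the grey bars for higher rows in all 8.

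The 4 comparisons of 1 drug with DMSO share no column, so a direction kept in all of them was counted. With ICG-001, 37 of 75 members were below the DMSO signal in all 4, against 20.8% of all rows, and 5 were above it in all 4, against 19.6%. With C646, 38 of 76 were below in all 4, against 24.1%, and 5 were above, against 21.2%. Members are brighter than most rows, and no share over rows as bright was counted for a direction kept in all 4. With the limit at 5 SD, which leaves out more dim rows, the shares of all rows below in all 4 were 22.8% for ICG-001 and 26.7% for C646. Those of the members were 48.6% and 50%. Rows at least 1.2-fold lower in all 4 were 7 with ICG-001, against 3.07% of all rows, namely ATP5C1, ATP5F1, COX7B, NDUFC1, UQCRB, UQCRC2 and UQCRFS1. For C646 they were 8, against 3.48%, namely ATP5D, ATP5J2, ATP5O, ATP5SL, COX7B, NDUFA3, NDUFC1 and UQCRC2. None of the members was 1.2-fold higher in all 4 comparisons of either drug, while 3.53% of all rows were with ICG-001 and 3.97% with C646. ATP5F1, ATP5O, ATP5SL and UQCRFS1 are named here because of these counts and were chosen after their values were seen.

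**Figure D2:**
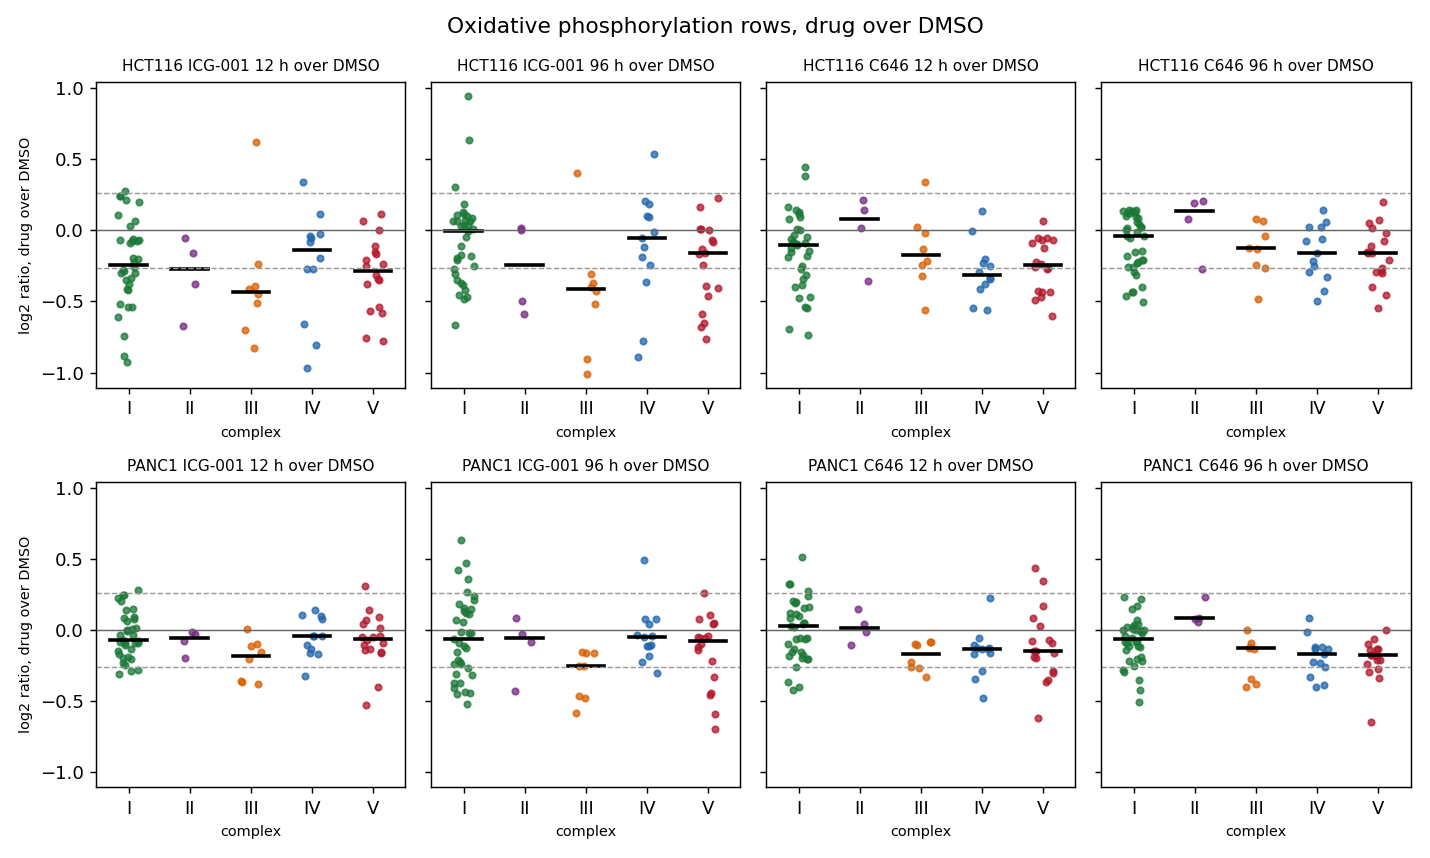
Log2 ratio of drug over DMSO (vertical axis) of each oxidative phosphorylation row above the limit, by complex (horizontal axis), in the 8 comparisons; each point is 1 row, black bars are medians, and dashed lines mark 1.2-fold. Complex III medians lie lowest with ICG-001, at -0.43 and -0.41 in HCT116 against -0.18 and -0.25 in PANC1. Complex II medians, each of 4 rows, lie above 0 with C646 in all 4 comparisons. They are small, at 0.08 and 0.14 in HCT116 and 0.02 and 0.08 in PANC1, beside a background noise SD of 0.07.

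Complex III, which carries electrons from ubiquinol to cytochrome c, had the lowest median of the 5 complexes in each of the 4 comparisons of ICG-001. With ICG-001 in HCT116, 6 of its 8 rows were at least 1.2-fold lower at 12 h and 7 at 96 h, and in PANC1 3 of 8 were lower at each time. In these comparisons 16.8%, 17.7%, 7.49% and 14.7% of all rows were lower. Among rows with a mean signal of at least 1000, which most rows of the complex reach, the shares were 27.1%, 29.2%, 14.5% and 25.5%. With C646, 2 to 3 of 8 were lower, against 9.87% to 13.1% of all rows and 17.2% to 21.7% of rows of that range. UQCRC2 encodes a core protein of the complex. Its signals in HCT116 were 1922, 1083 and 1303 with DMSO, ICG-001 and C646 at 12 h and 2395, 1280.3 and 1712 at 96 h. In PANC1 they were 2319.99, 1802 and 1849 at 12 h and 2306, 1537 and 1821 at 96 h. Both drugs were therefore below DMSO in each pair of columns, from 1.25 to 1.87 times lower, and its mean log2 ratio over the 8 comparisons (-0.55) was among the lowest of all members.

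UQCRB, a subunit near the ubiquinone site, had signals of 1083, 666 and 865 with DMSO, ICG-001 and C646 at 12 h in HCT116 and of 1125, 559 and 935 at 96 h. In PANC1 it had 1068, 823 and 892 at 12 h and 1045, 751 and 802 at 96 h. The difference from DMSO with ICG-001 at 96 h in HCT116, 2.01 times lower, was the largest of any member in the 8 comparisons. UQCRFS1, the Rieske iron-sulfur protein, differed between the drugs. With ICG-001 its log2 ratio was -0.39 and -0.40 in HCT116 against -0.36 and -0.46 in PANC1 at 12 and 96 h, while with C646 it was 0.03 and -0.13 in HCT116 against -0.08 and -0.09 in PANC1. UQCR, now UQCR11, went the other way in HCT116, where its signal was 283, 435 and 357 with DMSO, ICG-001 and C646 at 12 h and 208, 274 and 217 at 96 h. It was dim, and in PANC1 it stayed between 199 and 231 in all 6 columns. UQCR10 is a further subunit that the name rule did not reach (its row is named UCRC), looked up after the other values were seen. Its log2 ratio lay between -0.23 and 0.19 in HCT116 and between -0.47 and -0.18 in PANC1, while CYC1, cytochrome c1, lay between -0.33 and 0.33 in the 8 comparisons.

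Of the 4 rows of complex II, 1 and 2 were at least 1.2-fold lower with ICG-001 than with C646 at 12 and 96 h in HCT116, and 0 and 1 in PANC1, against 14.9%, 13.9%, 8.7% and 13.7% of all rows. SDHA, the flavoprotein that oxidizes succinate, had signals of 1001, 627 and 1106 with DMSO, ICG-001 and C646 at 12 h in HCT116 and of 1041, 739 and 1103 at 96 h. In PANC1 the signals were 1073, 1015 and 1190.1 at 12 h and 1006, 748 and 1184 at 96 h. The ICG-001 column was the lowest and the C646 column the highest in each of the 4 sets. SDHB, the iron-sulfur protein, lay close to DMSO, with log2 ratios from -0.16 to 0.08 with ICG-001 and from 0.01 to 0.21 with C646. The membrane anchor SDHC had ratios from -0.08 to 0.00 with ICG-001 and from -0.01 to 0.21 with C646. SDHD, the other anchor, was lower with both drugs in HCT116, at 3016, 2324 and 2354 with DMSO, ICG-001 and C646 at 12 h and 2979, 1982 and 2462 at 96 h. In PANC1 its log2 ratio stayed between -0.20 and 0.05. Of the 4 genes of the complex, SDHA had the largest difference between the drugs in each set.

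Complex IV, cytochrome c oxidase, had its lowest median with C646 at 12 h in HCT116 (-0.31). There 7 of 12 rows were at least 1.2-fold lower, against 11.2% of all rows and 19.7% of rows with a mean signal of at least 1000. The median of -0.31 was -0.20 without the filter on dim rows. In HCT116 the median of -0.14 with ICG-001 at 12 h became -0.052 and that of -0.16 for C646 at 96 h became -0.050. COX7B, a small subunit of the enzyme, had signals of 5172, 2642 and 3544 with DMSO, ICG-001 and C646 at 12 h in HCT116 and of 5449, 2937 and 3855 at 96 h. In PANC1 it had 6816, 5442 and 4906 at 12 h and 6295, 5095 and 4768 at 96 h. It was below DMSO in all 8 comparisons, from 1.24 to 1.96 times lower, with ICG-001 the lower of the drugs in HCT116 and C646 in PANC1. COX6C was 1.75 and 1.72 times lower with ICG-001 in HCT116, at 7089 against 12372 at 12 h and 8295 against 14234 at 96 h, while in PANC1 it was 1.10 to 1.14 times lower with either drug. COX6B1, which faces the intermembrane space, was lower at 12 h with ICG-001 in HCT116, with a log2 ratio of -0.66, but at 96 h the ratio was -0.19.

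The widespread form of subunit 4, COX4I1, had the highest mean of the complex (0.03), with log2 ratios from -0.22 to 0.22. COX7A2L, a relative of subunit 7A that takes part in joining complexes III and IV, had signals of 3011, 3259.9 and 2046 with DMSO, ICG-001 and C646 at 12 h in HCT116 and 3268, 3714 and 2741 at 96 h. In PANC1 the signals were 3896, 3789.6 and 3075 at 12 h and 3882, 4093 and 2976 at 96 h. The C646 column was the lowest in each set. COX7A2 itself, the widespread form of subunit 7A, was lower in all 8 comparisons, with ratios from -0.29 to -0.10. COX5B was above DMSO with ICG-001 at 96 h in PANC1, at 10129 against 7213. COX6A1 had log2 ratios from -0.20 to 0.02 and COX8A from -0.25 to 0.20, so both stayed under 1.2-fold in all 8 comparisons.

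**Figure D3:**
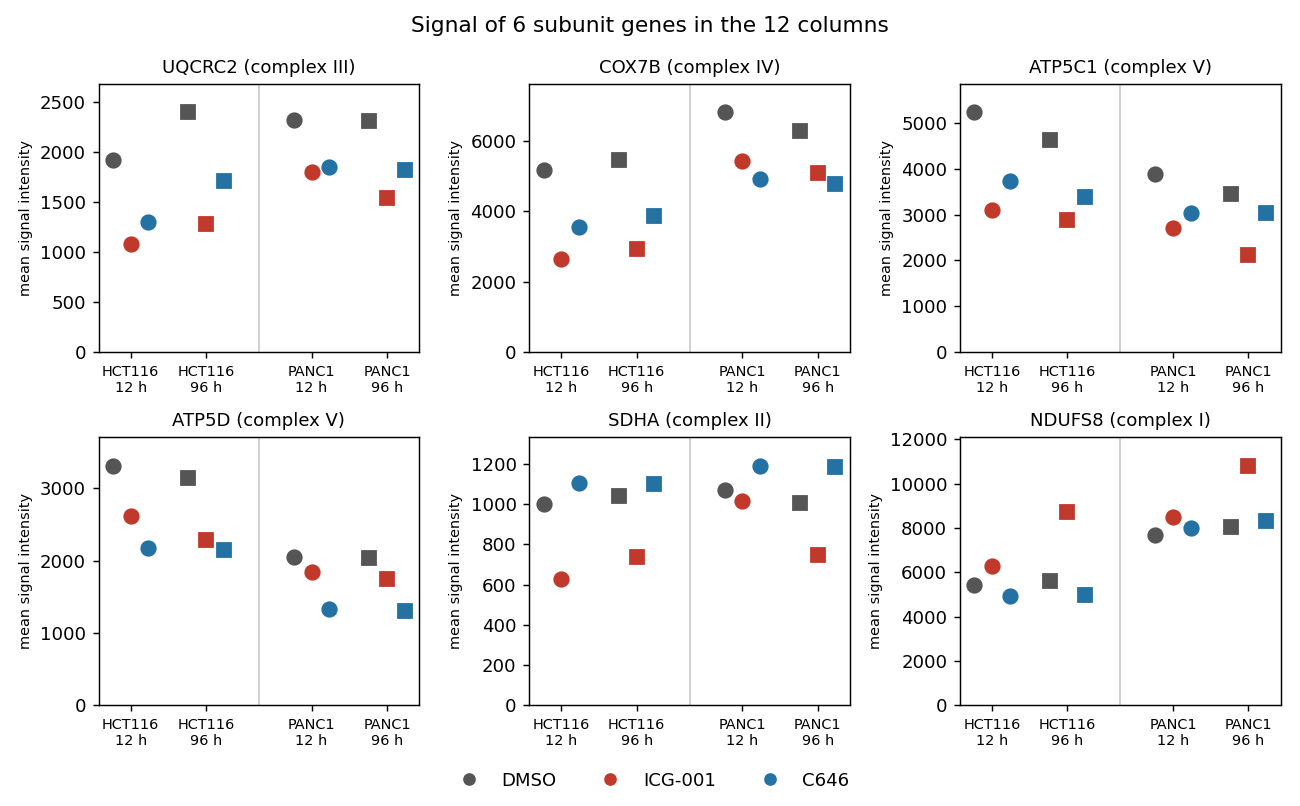
Mean signal intensity (vertical axis, linear, from 0) of UQCRC2, COX7B, ATP5C1, ATP5D, SDHA and NDUFS8 in the 12 columns, by line and time (horizontal axis); each point is 1 column, coloured by treatment, with circles for 12 h and squares for 96 h. SDHA is lowest with ICG-001 and highest with C646 in each set of 3 columns, while COX7B is below DMSO with both drugs in each set.

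Complex V, the ATP synthase, consists of a catalytic F1 head with a rotating shaft, a ring of c subunits in the membrane and a side stalk that holds the head in place. The alpha and beta chains, which form the catalytic ring of the head, differed little from DMSO, with log2 ratios from -0.17 to 0.05 for ATP5A1 and from -0.26 to -0.04 for ATP5B. The shaft subunits differed more. ATP5C1, the gamma chain, had signals of 5232, 3103 and 3729.7 with DMSO, ICG-001 and C646 at 12 h in HCT116 and of 4625, 2885 and 3374 at 96 h. In PANC1 the signals were 3894, 2707 and 3026 at 12 h and 3443, 2123 and 3037 at 96 h. ICG-001 gave the lowest signal in each set, 1.44 to 1.69 times below DMSO, and C646 lay between them.

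ATP5D, the delta chain of the shaft, showed the other order. Its signals with DMSO, ICG-001 and C646 were 3309, 2612 and 2181 at 12 h and 3144, 2285 and 2153 at 96 h in HCT116, and 2056, 1843 and 1339.6 at 12 h and 2037, 1753 and 1299 at 96 h in PANC1. C646 gave the lowest signal in each set. In PANC1, ATP5D was the only member past 1.5-fold with C646, 1.54 times lower at 12 h and 1.57 times at 96 h. In HCT116 it was 1.52 and 1.46 times lower. ATP5E, the epsilon chain, had ratios from -0.76 to -0.30 in HCT116 and from -0.21 to 0.11 in PANC1. The row of ATP5EP2, which may share RNA with ATP5E, was brighter and differed less from DMSO in HCT116. With ICG-001 at 96 h in that line it had 12393 against 13010 with DMSO, while ATP5E had 2267 against 3847.

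Of the side stalk, ATP5F1, subunit b, had log2 ratios of -0.58 and -0.65 with ICG-001 at 12 and 96 h in HCT116 and of -0.40 and -0.59 in PANC1, against -0.29 to -0.20 with C646. ATP5J2, subunit f of the membrane part, was lower with both drugs in HCT116, with ratios of -0.78 and -0.59 for ICG-001 and -0.43 and -0.26 for C646, and in PANC1 with C646 (-0.30 and -0.34) more than with ICG-001 (-0.09 and -0.14). The genes ATP5G1, ATP5G2 and ATP5G3 encode the same mature c subunit, and their ratios differed in direction. ATP5G2 had the highest mean of the complex (0.12), with signals of 1427, 1765 and 1809.9 with DMSO, ICG-001 and C646 at 12 h in PANC1 and of 1716, 2059 and 1567 at 96 h. ATP5G1 in PANC1 was above DMSO with C646 at 12 h (2822 against 2090.3) and below it with ICG-001 at 96 h (2017 against 2737). ATP5G3 was dim, at 202 to 353, and with ICG-001 its ratio lay between -0.33 and -0.10. The pseudogene ATP5EP2 had ratios from -0.16 to 0.08.

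Complex I, which takes electrons from NADH, is built from nuclear core subunits with the redox centres, core subunits encoded in mitochondrial DNA, and many accessory subunits. The median of its accessory rows, with NDUFA4 among them, was below that of its 7 nuclear core rows in 7 of the 8 comparisons with DMSO. The gap was widest with C646 at 12 h in HCT116 (-0.14 against 0.10). At 12 h with ICG-001 in HCT116, 14 of 27 accessory rows and 2 of 7 core rows were at least 1.2-fold lower. In that comparison 16.8% of all rows were lower, and 27.1% of rows with a mean signal of at least 1000. The exception was ICG-001 at 96 h in HCT116 (0.00 against -0.11).

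Among the core subunits, NDUFS8, which holds iron-sulfur clusters, was above DMSO with ICG-001. Its signals with DMSO, ICG-001 and C646 in HCT116 were 5430.02, 6289 and 4915 at 12 h and 5626, 8734 and 4959.7 at 96 h. In PANC1 they were 7691, 8512 and 7973 at 12 h and 8051, 10789.6 and 8296 at 96 h. The ICG-001 column was the highest in each set, most at 96 h, where it was 1.55 times DMSO in HCT116 and 1.34 times in PANC1. NDUFV2, another iron-sulfur subunit named after its values were seen, was lower with both drugs in both lines, with log2 ratios from -0.54 to -0.25. NDUFV1, which holds the flavin and binds NADH, had ratios from -0.11 to 0.28. NDUFS1 was dim, at 153 to 236 in all columns.

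Of the accessory subunits, NDUFC1 had signals of 1891, 1554 and 1305 with DMSO, ICG-001 and C646 at 12 h in HCT116 and of 1952, 1230.5 and 1375 at 96 h. In PANC1 it had 1479, 1193 and 1119 at 12 h and 1477, 1083 and 1105 at 96 h, so that both drugs were below DMSO in every set. NDUFA3 was lower in all 8 comparisons as well, with ratios from -0.54 to -0.17 for ICG-001 and from -0.69 to -0.39 for C646. NDUFB7 was lower mainly with ICG-001 at 12 h in HCT116, at 1299.9 against 2393 with DMSO. Its ratio was -0.42 there at 96 h and -0.23 and -0.37 in PANC1.

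NDUFA6 had the highest mean of the complex (0.26). In HCT116 its signal was 879, 1039 and 1144 with DMSO, ICG-001 and C646 at 12 h and 534, 1026 and 518 at 96 h, so that the 1.92-fold difference with ICG-001 at 96 h came with a DMSO signal that was lower than at 12 h. In PANC1 it was 544, 579 and 525 at 12 h and 525, 726 and 552 at 96 h. NDUFB6 was above DMSO with ICG-001 at 96 h in PANC1, at 3014 against 1948, and in HCT116 at the same time the signals were 1623 and 1581. NDUFA7 was lower with both drugs in HCT116, at 977, 766 and 585 with DMSO, ICG-001 and C646 at 12 h and 958, 751 and 711 at 96 h. In PANC1 no such difference was seen, with 559, 655 and 661 at 12 h and 721, 779.7 and 722 at 96 h.

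To compare the drugs at the same dose, time and line, ICG-001 was set over C646. In HCT116 at 12 h, 22 of 77 rows were at least 1.2-fold lower with ICG-001 and 7 higher, against 14.9% and 13.7% of all rows. At 96 h, 15 of 78 were lower and 10 higher, against 13.9% and 13.1%. In PANC1, 3 of 78 were lower and 2 higher at 12 h, against 8.7% and 9.31% of all rows, and 9 of 79 were lower and 13 higher at 96 h, against 13.7% in each direction. At 1.5-fold the counts were 1 lower and 1 higher at 12 h in HCT116 (2.88% and 3.52% of all rows), 2 and 4 at 96 h (3.23% and 3.18%), 0 and 0 at 12 h in PANC1 (0.917% and 1.56%) and 1 and 1 at 96 h (3.44% and 3.29%). Medians over the members were -0.10 and -0.05 in HCT116 against -0.01 and 0.03 in PANC1. Complex III was lowest of all complexes in HCT116 (-0.27 and -0.29), and complex II was lowest in PANC1 (-0.07 and -0.12).

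**Figure D4:**
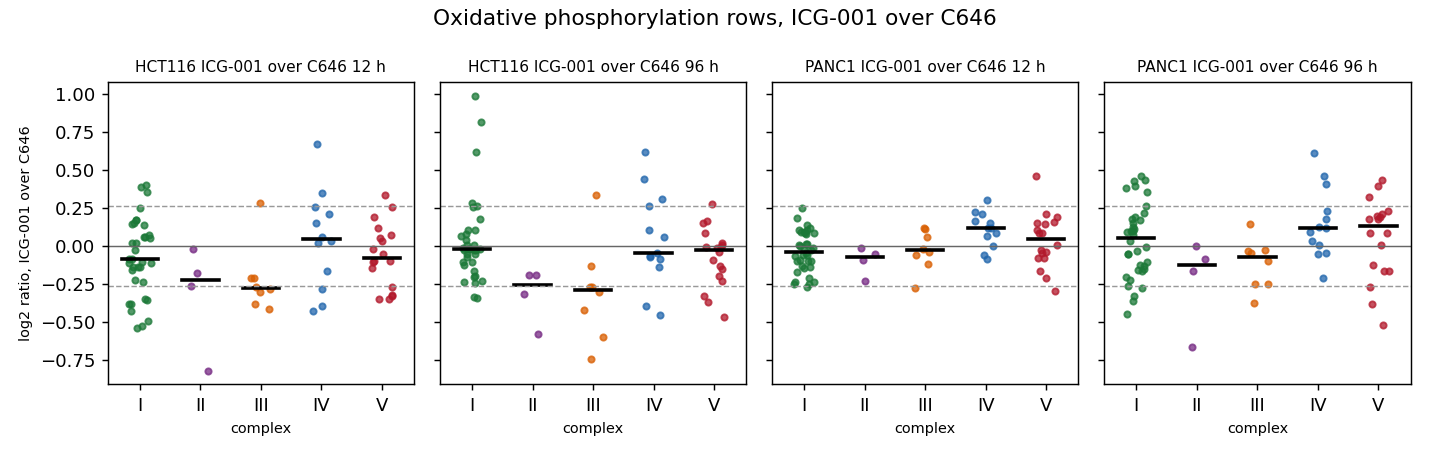
Log2 ratio of ICG-001 over C646 (vertical axis) of each row above the limit, by complex (horizontal axis), at 12 and 96 h in the 2 lines; each point is 1 row, black bars are medians and dashed lines mark 1.2-fold. SDHA is the lowest complex II point in each panel, at -0.82 and -0.58 in HCT116 against -0.23 and -0.66 in PANC1.

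The rows at the 2 ends of this comparison repeated between lines or times in part. SDHA had log2 ratios of ICG-001 over C646 of -0.82 and -0.58 in HCT116 against -0.23 and -0.66 in PANC1. COX7A2L was on the other side in all 4, at 0.67 and 0.44 in HCT116 against 0.30 and 0.46 in PANC1. NDUFB7 (-0.54) followed SDHA at 12 h in HCT116, and UQCRB (-0.74) and UQCRC1 (-0.60) were lowest at 96 h. UQCRC1, the other core protein of complex III, had signals of 2596, 1812 and 2744 with DMSO, ICG-001 and C646 at that time. NDUFA6 (0.99) and NDUFS8 (0.82) were the highest at 96 h in HCT116, and NDUFA13 (0.40) was second to COX7A2L at 12 h. In PANC1, ATP5D was the highest at 12 h (0.46), with ATP5G1 (-0.29) and UQCRFS1 (-0.27) the lowest, while at 96 h COX5B (0.61) and NDUFB6 (0.46) were the highest and ATP5C1 (-0.52) came after SDHA.

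Between 12 and 96 h with DMSO the median over all members differed little. In HCT116, 10 of 78 were at least 1.2-fold lower at 96 h and 2 higher, against 10.4% and 12.1% of all rows, and in PANC1 1 was lower and 7 were higher of 78, against 6.21% and 8.83%. The medians were -0.05 and -0.01. By complex they ran from -0.11 (complex V) to 0.10 (complex IV) in HCT116 and from -0.10 (complex II) to 0.01 (complex I) in PANC1. Some complex medians of a drug over DMSO were no further from 0 than these. NDUFA6 (534 against 879) and COX4NB, now EMC8 and no subunit (313 against 485), were lowest at 96 h in HCT116, and UQCRC2 (0.32) and NDUFV1 (0.29) had the highest log2 ratios. In PANC1 NDUFS1 (-0.31) and COX4NB (-0.24) were lowest, and ATP5G1 had a log2 ratio of 0.39.

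Other genes of the pathway were looked up from lists. The assembly factors, which build the complexes without remaining in them, were counted for each complex. Of 14 assembly factors of complex I, 4 were at least 1.2-fold higher and 1 lower with ICG-001 at 12 h in HCT116, and 7 were higher and 1 lower at 96 h, while 16.3% and 17.1% of all rows were higher. For C646 in the same line the counts were 4 and 1 at 12 h, then 3 and 2 at 96 h, with 10.6% and 9.81% of all rows higher. In PANC1, 3 to 4 were higher and 0 to 4 lower, against 9.53% to 13.8% and 7.49% to 14.7% of all rows. Each count of higher rows holds NDUFAF7 by its row PRO1853, with which its other row disagreed, and is 1 smaller without it. NUBPL, which delivers iron-sulfur clusters to complex I, had signals of 847, 1375 and 1917 with DMSO, ICG-001 and C646 at 12 h in HCT116 and of 1103, 1621 and 1949.95 at 96 h. In PANC1 it had 794, 1373 and 2028 at 12 h and 1097, 1490.2 and 2799.9 at 96 h. It was above DMSO in each set, with C646 higher than ICG-001. NDUFAF7, a methyltransferase, had 2 rows that disagreed. The row PRO1853 had log2 ratios from 0.30 to 1.45, while C2orf56 had ratios from -0.20 to 0.12, so no direction is given for the gene.

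For complex IV, 19 of 22 assembly factors were compared, of which 7 were higher and 2 lower with ICG-001 at 12 h in HCT116 and 10 higher and 1 lower at 96 h, against 16.3% and 17.1% of all rows higher. C646 gave 4 higher and 0 lower there at 12 h, then 3 higher and 1 lower at 96 h, against 10.6% and 9.81% higher. In PANC1 3 to 4 were higher and 1 to 6 lower, against 9.53% to 13.8% and 7.49% to 14.7% of all rows. COX19, a copper-handling factor, was above DMSO in all 8 comparisons, with ratios from 0.38 to 0.83. TACO1, an activator of COX1 translation, was highest with C646 at 12 h in HCT116 (0.62). COX16 was lower in all 8 by its bright row (C14orf112), from -0.76 to -0.14, while its second row was near the limit, with ratios from -0.02 to 0.18. For the other complexes, BCS1L, which inserts the Rieske protein into complex III, had ratios from -0.08 to 0.74, TTC19 from -0.35 to 0.59 and UQCC3 from -0.63 to 0.21. SDHAF2, which attaches the flavin to SDHA, had ratios of 0.39 and 0.60 with ICG-001 in HCT116 and of 0.59 and 0.40 with C646, and lay between -0.05 and 0.29 in PANC1. Over complexes II, III and V, the lists of 4, 6 and 3 assembly factors had 0 to 1, 0 to 3 and 0 to 1 rows higher and 0 to 2, 0 to 2 and 0 to 1 lower in the 8 comparisons, in which 9.53% to 17.1% of all rows were higher and 7.49% to 17.7% lower.

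**Figure D5:**
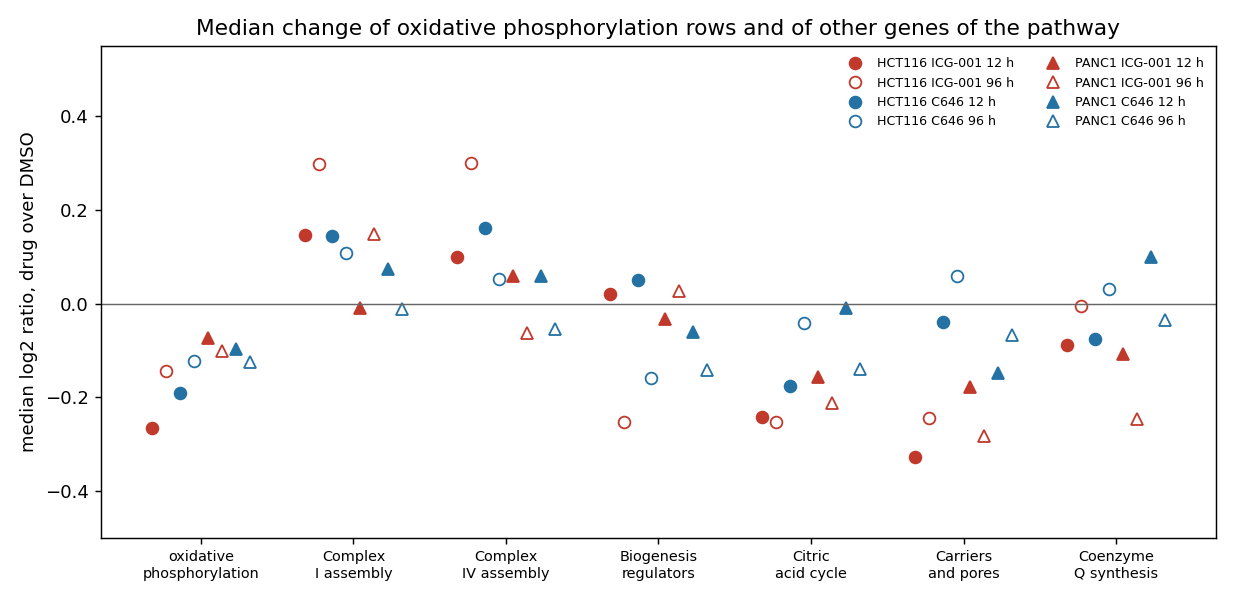
Median log2 ratio of drug over DMSO (vertical axis) of the oxidative phosphorylation rows and of 6 lists of other genes of the pathway (horizontal axis); each point is 1 of the 8 comparisons, with red for ICG-001, blue for C646, circles for HCT116, triangles for PANC1, filled for 12 h and open for 96 h. The oxidative phosphorylation medians lie below 0 in all 8, and so do those of the citric acid cycle genes, from -0.25 to -0.01. With ICG-001 in PANC1 the citric acid cycle medians (-0.16 and -0.21) are the lower of the 2, against -0.07 and -0.10. Medians of complex I assembly factors lie between -0.01 and 0.30 and those of complex IV assembly factors between -0.06 and 0.30.

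Of 13 citric acid cycle genes, 6 were at least 1.2-fold lower in HCT116 at each time with ICG-001 (16.8% and 17.7% of all rows) and 4 and 5 in PANC1 (7.49% and 14.7%), with 0 to 1 higher. With C646, 2 and 1 were lower in HCT116 (11.2% and 9.87% of all rows) and 4 and 3 in PANC1 (13.1% and 11.2%). OGDH, a component of the 2-oxoglutarate dehydrogenase complex, was the lowest, at -0.91 with C646 at 12 h in PANC1. Its DMSO signal there was 428 at 12 h and 288 at 96 h, and at 96 h the ratio with C646 was -0.39. In HCT116 the ratios with C646 were -0.21 and -0.17. Of the carriers and pores, 7 were compared at 12 h and 6 at 96 h. With ICG-001, 4 and 2 were lower in HCT116 and 2 and 3 in PANC1, and with C646 1 was lower at each time in HCT116, then 3 and 1 in PANC1, against the same shares of all rows. VDAC1, the main channel of the outer membrane, was below DMSO in all 8 comparisons, with ratios from -0.66 to -0.14. Coenzyme Q genes showed 0 to 5 of 10 or 11 lower and 0 to 2 higher, against 7.49% to 17.7% and 9.53% to 17.1% of all rows. COQ8A had a ratio of -0.97 with ICG-001 at 96 h in HCT116 and of -0.49 in PANC1, against -0.07 to 0.18 with C646.

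Of 15 regulators of mitochondrial biogenesis, 11 to 13 were compared, with 1 to 5 lower and 0 to 2 higher, against the same shares of all rows. The coactivator PPARGC1A was not above the limit in any column and the factor NRF1 in 1. POLRMT, the mitochondrial RNA polymerase, was lower in all 8, with ratios from -0.71 to -0.21. ESRRA, a nuclear receptor that acts on respiratory genes, was lower with C646 in both lines. Its ratios with C646 were -0.60 at each time in PANC1 and -0.24 and -0.31 in HCT116. With ICG-001 they were -0.36 and 0.09 in PANC1 and 0.02 and -0.10 in HCT116. Among subunits and partners outside the name rule, ATP5MK (row USMG5) was above DMSO with ICG-001 in PANC1 (0.40 and 0.66) and ATP5IF1, an inhibitor of the ATP synthase, was below it at 96 h (-0.70). Of the 6 such genes in the table, 1 to 3 were lower and 0 to 2 higher, again against those shares.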

How the data were processed

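RNA of HCT116 and PANC1 cells was measured on Illumina HumanHT-12 BeadChips. Per the labels and methods, the authors took linear signal intensity out of GenomeStudio after quantile normalization, did not subtract background and averaged replicate arrays, and the deposited intensity table held 1 column for each of 12 groups. Sorted log2 values differed by 0.0037 to 0.0093 on average between columns of a line and by 0.063 to 0.066 between lines, which points to separate normalization of each line, and signals were compared within a line. Quantile normalization gives each array the same distribution, so a change shared by most genes cannot be seen.

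Intensities were converted to log2 and subtracted. For each column, the limit of detection was placed 2.33 SD above the peak of the log2 values, where the SD came from the values left of that peak. The number of arrays limits the precision, and no replicate error or test could be had. The genes and lists were chosen with earlier results of these data known. Genes were named by a rule: the SDH genes, members past 1.5-fold at both times with a drug, the 2 lowest and the highest mean log2 ratio of each complex, isoform sets, the 2 ends of ICG-001 over C646 and of 96 over 12 h with DMSO, and up to 2 genes each way past 1.5-fold in each other list. Exceptions are marked, and some genes that the rule or the lists name are not reported here. Where a gene of a list had several rows, the brightest was taken.

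Symbols were matched to RefSeq (GRCh38.p14), 64 by current symbol, 22 by an older one and 1 to several genes. Promoter sequences are from RefSeq on that build. Alternatives were folds of 1.5 and 2, no filter on dim rows, a limit at 5 SD, normexp with an offset of 16, centring on the median of all rows and quantile normalization over 12 columns. A further one kept only the 81 rows of subunits and of their tissue-restricted or related forms. Python 3.11.15 with numpy 2.4.6, pandas 2.3.3 and matplotlib 3.10.9 and limma 3.58.1 in R 4.3.3 were used, and the procedure was tested on simulated data.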

Additional observations from a re-analysis of the deposited data

Results flagged for a closer look

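NDUFA7, an accessory subunit of complex I, had log2 ratios on opposite sides of 0 in the 2 lines, although the lowest in PANC1 (C646 at 96 h, 0.00) was within the noise of the background. Its log2 ratio to DMSO was below 0 in the 4 HCT116 comparisons (-0.74 to -0.35, mean -0.47) and at or above 0 in the 4 PANC1 comparisons (0.00 to 0.24, mean 0.15), a difference of -0.61. The difference was not tested. The 2 drugs shared a DMSO column at each time in each line. Of all rows compared in each of the 8 comparisons, 260 of 13495 (1.93%) had opposite signs in this way, and of the members 1 of 75 (1.33%).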

How the results depend on the processing

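No paired analysis was possible because each group had 1 column, the mean of its arrays. For the same reason no array could be left out. Medians over all members stayed on the same side of 0 and moved by less than the background noise (SD 0.0611 to 0.0737 on the log2 scale) under every alternative run, for the 8 comparisons with DMSO, the 4 of ICG-001 over C646 and the 2 of time. Of 240 medians of single complexes under the alternatives, 6 moved by more, all in complex IV in HCT116. Without a filter on dim rows, which brings in forms under the limit, the complex IV median at 12 h was -0.052 for ICG-001 and -0.20 for C646, and at 96 h it was -0.050 for C646. For C646 it was -0.24 at 12 h under normexp, and -0.23 at 12 h and -0.083 at 96 h under quantile normalization over 12 columns.

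Counts depended on the fold, as a stricter one passes fewer. In HCT116 at 1.5-fold, ICG-001 had 12 members lower and 1 higher at 12 h, then 10 and 2 at 96 h, and C646 had 3 and 0 at 12 h, then 0 lower at 96 h. In PANC1, ICG-001 had 0 and 0 at 12 h, then 3 and 1 at 96 h, and C646 had 1 and 0 at 12 h, then 1 lower at 96 h. For ICG-001 over C646 they were 1 and 1, then 2 and 4 in HCT116 at 12 and 96 h, and 0 and 0, then 1 and 1 in PANC1. At 2-fold, 1 member was lower with ICG-001 at 96 h in HCT116 and 0 in the other comparisons, with 0 higher in all. Under normexp, 2 were higher with C646 at 96 h in each line, in place of 0. Among rows of signal at least 1000, members that were higher numbered 0 at 12 h and 2 at 96 h for ICG-001 in HCT116, 0 for C646 at 12 h in that line and 1 for ICG-001 at 12 h in PANC1. The other counts stayed within 1.5 times. Under the 6 alternatives other than the fold, 46% to 52% of members were below DMSO in all 4 ICG-001 comparisons and 43.7% to 50% in all 4 C646 comparisons, against 12.8% to 22.8% and 14.9% to 26.7% of all rows.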
